A study of Mus musculus with 9 samples.

Results

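The 34 genes described here encode proteins of T cells and natural killer (NK) cells: the T cell receptor complex, its coreceptors and signaling proteins, costimulatory and inhibitory receptors, and the proteins of cytotoxic granules. They were taken by gene symbol from the 24411 genes listed for each mouse, and all 34 were found. The samples were whole hippocampi of 9 male C57BL/6J mice collected 10 days after gene transfer, with an age of 10 weeks in the labels. CUG300 mice given CWG-cPIP (3 mice, called treated mice below) received AAV9 carrying 300 CTG repeats in the 3′ untranslated region of Egfp together with CWG-cPIP at 83 μg/kg. CUG300 vehicle mice (3 mice) received the same virus with vehicle, 1.5% DMSO in PBS. CUG10 mice (3 mice) received AAV9 carrying 10 CTG repeats in Egfp with the same vehicle. CWG-cPIP is a cyclic pyrrole–imidazole polyamide, a small molecule made to bind CAG and CTG repeats in DNA. Virus and compound or vehicle were injected as a mixture into CA1 of the dorsal hippocampus on both sides, so all 9 mice carried AAV9 and an Egfp transgene and had been injected in the hippocampus. No uninjected mice were analysed here, and the promoter that drove Egfp is not given in the sources used here.

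T cells recognize peptides on other cells through the T cell receptor, which sends its signal inward through the CD3 and zeta chains, the kinases LCK and ZAP70 and the adaptor LAT. Costimulatory receptors such as CD28 and ICOS raise this signal, and inhibitory receptors such as CTLA-4 and PD-1 lower it. Cytotoxic T cells and NK cells kill their targets by releasing perforin, which opens the target membrane, and granzymes, proteases that then enter the cell. The healthy brain parenchyma holds few of these cells, and they enter it in numbers during viral infection and inflammation.

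The promoters of the cytotoxic genes are shown first because Gzmb and Gzma had the largest differences between the vehicle groups, and because T cells and NK cells use RUNX factors to express them. The window of 250 bases before the RefSeq start (GRCm38.p6) was available for 22 of the 34 genes and for 27025 genes in all. TGTGGT, the core letters bound by RUNX factors, or its complement ACCACA stood in the windows of 9 of these 22 genes and of 15.9% of all genes. The stretches below are written 5′ to 3′ on the strand of the gene, with this word in capitals. For Gzma, Prf1 and Klrk1 the letters after the start were found in a GENCODE transcript of the gene in this direction. For Gzmb they were found in no such transcript, and the direction rests on the strand, which RefSeq and GENCODE give alike. Those of Gzma (chr13:113101004-113101053), Gzmb (chr14:56262341-56262390) and Klrk1 (chr6:129623966-129624015) lie on the minus strand, and that of Prf1 (chr10:61297684-61297733) lies on the plus strand.
Gzma: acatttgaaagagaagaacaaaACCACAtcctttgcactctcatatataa
Gzmb: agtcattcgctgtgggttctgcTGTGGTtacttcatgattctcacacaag
Prf1: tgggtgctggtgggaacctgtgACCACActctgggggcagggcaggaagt
Klrk1: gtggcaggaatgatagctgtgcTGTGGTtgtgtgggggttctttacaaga
The word was also present before Nkg7, Lck, Zap70, Tigit and Il2rg. Of the other words searched on both strands, AGGTGT of T-box factors such as TBX21 stood in 9 of the 22 windows (13.6% of all genes), and AGGAAGT of ETS factors stood in 7 (8.8%). GGAAAA of NFAT stood in 5 (22.9%), TTCNNNGAA of STAT factors in 3 (8.13%), GAAANNGAA of interferon regulatory factors in 3 (8.18%), TGANTCA of AP-1 in 1 (7.82%) and GGGANTTCC of NF-kappaB in 0 (1.63%). The words were chosen with expression values known, and a match describes the letters of the window and not a site in use.

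Expression is given as rlog, a regularized logarithm to base 2, in which counts are scaled between mice and low values are drawn toward the mean of the gene, so that differences of weakly expressed genes are understated. Because rlog values are not scaled for transcript length, levels are compared between mice and not between genes. All 14867 genes whose mean over the mice reached log2(10) were tested with limma, and a gene was called at a Benjamini-Hochberg adjusted p under 0.05. Of the 34 T and NK cell genes, 32 passed this minimum. Gzmk, a granzyme, and Klrg1, an inhibitory receptor of NK cells and mature T cells, did not. Gzmk had means of 2.18, 2.30 and 2.05 in treated, CUG300 vehicle and CUG10 mice, and Klrg1 had 2.51, 2.59 and 2.47. Among the 32 genes tested, Cd27, Tigit and Ifng passed only through CUG300 mice, with CUG10 means under the minimum, and 0 of these 3 were called.

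Medians per mouse over all genes tested lay between 8.43 and 8.54. They were 8.46 to 8.53 in treated mice, 8.48 to 8.54 in CUG300 vehicle mice and 8.43 to 8.44 in CUG10 mice, so the vehicle groups did not overlap. On the first principal component, treated mice lay at 0.49, −28.66 and 33.82, CUG300 vehicle mice between 20.76 and 44.75 and CUG10 mice between −39.07 and −27.65, so the 3 treated mice stood farther apart than the mice of either vehicle group. Hippocampal neuron markers were present in all mice, with Prox1, a marker of dentate granule cells, between 7.36 and 9.13 and Wfs1, a marker of CA1 neurons, between 10.72 and 11.34. Choroid plexus markers differed by mouse: Ttr, the transthyretin gene that choroid plexus expresses very strongly, had 10.26, 9.51 and 10.22 in treated mice, 15.89, 13.88 and 14.74 in CUG300 vehicle mice and 9.78, 13.20 and 14.74 in CUG10 mice. Over the 14867 genes, 1096 were higher (7.37%) and 496 were lower (3.34%) in CUG300 vehicle than in CUG10 mice at an adjusted p under 0.05.

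T and NK cell genes were higher in CUG300 vehicle than in CUG10 mice, with at least 1 gene called in every role. Of the 32 genes tested, 21 were called higher (background 7.37%) and 0 were called lower (background 3.34%). The lowest CUG300 vehicle mouse exceeded the highest CUG10 mouse in 31 of the 32 genes (18.2% of all genes tested), Cd4 being the exception. The median log2 difference was 1.21 (range 0.37 to 3.20), beside −0.01 over all genes tested. Both the 31 genes and this median include Cd27, Tigit and Ifng, which passed the minimum only through CUG300 mice. In whole tissue, more cells of a type and more RNA per cell cannot be told apart. Each variance was pooled over all 9 mice, and the counts depended on single mice. When any 1 CUG10 mouse was left out, and when CUG300 vehicle replicate 3 was, 0 of the 32 genes were called. Calls over all genes were also 0 in these fits, or 2 without CUG10 replicate 2. Of the 32 genes, 27 to 30 still had an unadjusted p under 0.05 with limma. With all 9 mice, 16.3% of all genes were higher at that level, and the share without a mouse is not given here. Without treated replicate 1 only Cd3g and Cd52 were called, beside 265 of all genes. Without treated replicates 2 and 3 in turn 27 and 30 were called, beside 1866 and 2300 of all genes. The median difference stayed between 1.13 and 1.40 when each mouse was left out.

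**Figure D1:**
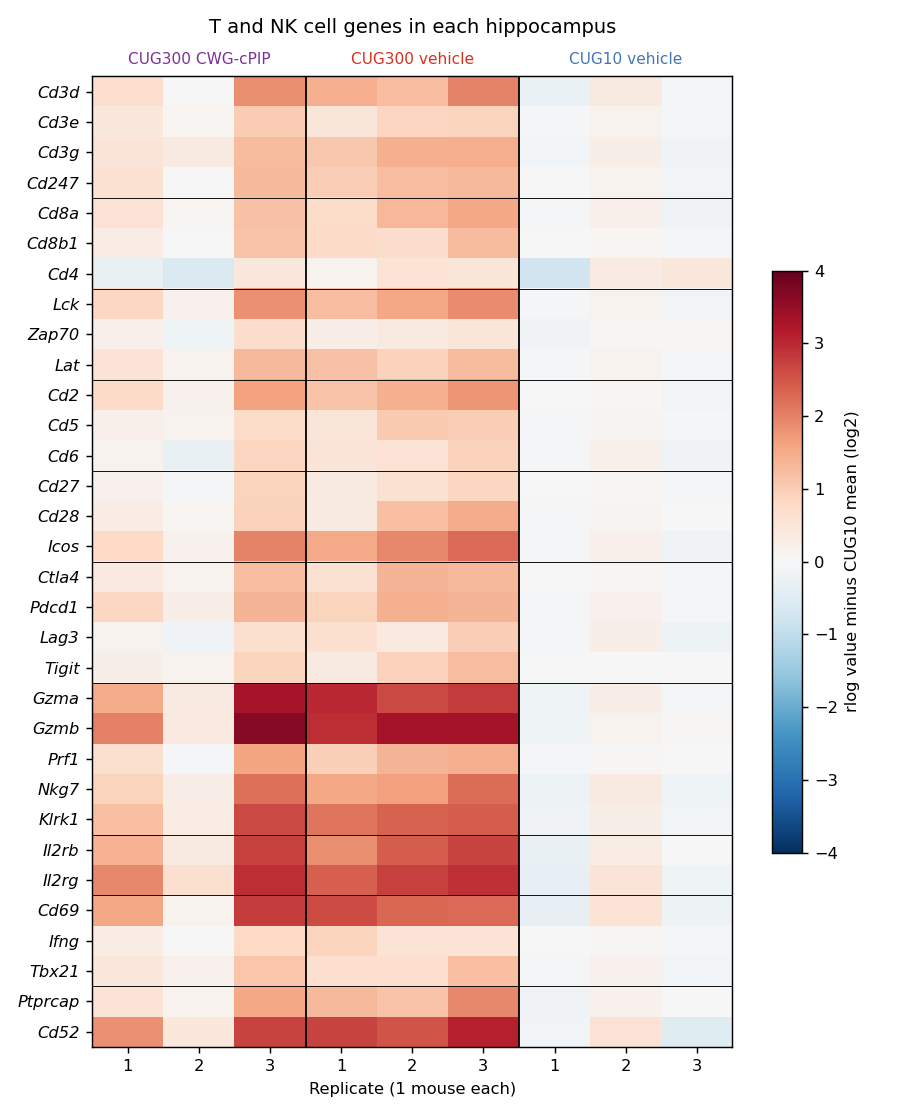
Rlog value of each of the 32 tested T and NK cell genes in each mouse minus the mean of the CUG10 mice (log2), with genes in rows by role and the 9 mice in columns. Red marks higher values: CUG300 vehicle mice and treated replicate 3 are red in nearly all rows, and treated replicate 2 resembles the CUG10 mice, with a median of 0.15 over the genes.

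The CD3 and zeta chains, which carry the signal of the receptor into the cell, showed a median log2 difference of 1.25 between CUG300 vehicle and CUG10 mice, with 3 of 4 called. Cd3g had rlog values of 4.78, 4.60 and 5.54 in treated mice, 5.34, 5.66 and 5.70 in CUG300 vehicle mice and 4.16, 4.48 and 4.13 in CUG10 mice (replicates 1, 2 and 3 in each group, as in all lists below). All 3 CUG300 vehicle mice stood above all CUG10 mice, and the difference was 1.31 (SE 0.23, limma adjusted p = 0.0222). Cd3d, the delta chain, had 5.29, 4.63 and 6.48 in treated mice, 6.06, 5.85 and 6.59 in CUG300 vehicle mice and 4.34, 4.96 and 4.55 in CUG10 mice. The vehicle groups again did not overlap, with a difference of 1.55 (SE 0.42, limma adjusted p = 0.0476), and treated replicate 2 lay inside the CUG10 range. Cd247, the zeta chain, had 4.74, 4.13 and 5.41 in treated mice, 5.10, 5.35 and 5.42 in CUG300 vehicle mice and 4.10, 4.24 and 4.0 in CUG10 mice. Its difference was 1.18 (SE 0.27, limma adjusted p = 0.0317), and only treated replicates 1 and 3 lay above the CUG10 mice. Cd3e, the epsilon chain, ranged over 3.73 to 4.69 in treated, 4.16 to 4.56 in CUG300 vehicle and 3.60 to 3.80 in CUG10 mice and missed the threshold, at 0.75 (SE 0.22, limma adjusted p = 0.0596). Cd3g, Cd3d and Cd3e lie together on chromosome 9, with 1.35 kb between Cd3g and Cd3d and 11.4 kb between Cd3d and Cd3e. An annotated antisense gene, Gm48719, overlaps Cd3e, and the sources do not say if strand was used in counting.

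The coreceptors separate the main classes of T cells, CD8 marking cytotoxic cells and CD4 marking helper cells. Cd8a had 4.59, 4.10 and 5.20 in treated mice, 4.76, 5.36 and 5.57 in CUG300 vehicle mice and 3.96, 4.24 and 3.89 in CUG10 mice. The CUG300 vehicle mice stood above the CUG10 mice without overlap, and the difference was 1.21 (SE 0.29, limma adjusted p = 0.0347). Cd8b1, the second CD8 chain, spanned 3.55 to 4.67 in treated, 4.25 to 4.80 in CUG300 vehicle and 3.47 to 3.62 in CUG10 mice, with a difference of 0.92 (SE 0.26, limma adjusted p = 0.0568) that missed the threshold. Cd4 had 5.25, 4.94 and 5.97 in treated mice, 5.69, 6.09 and 6.04 in CUG300 vehicle mice and 4.76, 5.86 and 5.99 in CUG10 mice. CUG10 replicates 2 and 3 lay among the CUG300 vehicle mice while CUG10 replicate 1 was far lower, and Cd4 was the only gene of the 32 in which the vehicle groups overlapped, at 0.40 (SE 0.35, limma adjusted p = 0.469). The SD of Cd4 in CUG10 mice, 0.68, was the largest in that group among the 32 genes. Choroid plexus markers, described below, had medians of −1.37, 0.05 and 1.33 in CUG10 mice relative to the CUG10 mean, the same order as Cd4. In CUG300 vehicle mice their medians were 1.55, 0.39 and 0.94, the opposite order to Cd4. Whether the Cd8 genes and Cd4 differed in their response was not tested, and neither was the number of helper cells.

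Among the proteins that act directly below the receptor, LCK phosphorylates the CD3 and zeta chains, ZAP70 docks onto them and LAT gathers the next adaptors. Lck had 6.33, 5.68 and 7.33 in treated mice, 6.75, 7.06 and 7.39 in CUG300 vehicle mice and 5.46, 5.63 and 5.40 in CUG10 mice. All CUG300 vehicle mice stood above all CUG10 mice, with a difference of 1.57 (SE 0.36, limma adjusted p = 0.0314). Lat had 4.85, 4.47 and 5.61 in treated mice, 5.49, 5.25 and 5.57 in CUG300 vehicle mice and 4.26, 4.45 and 4.24 in CUG10 mice. Here treated replicate 3 exceeded the highest CUG300 vehicle mouse, and the vehicle groups differed by 1.12 (SE 0.25, limma adjusted p = 0.0305). Zap70 had 6.53, 6.16 and 7.02 in treated mice, 6.60, 6.69 and 6.80 in CUG300 vehicle mice and 6.20, 6.39 and 6.39 in CUG10 mice. Its difference of 0.37 (SE 0.20, limma adjusted p = 0.235) was the smallest of the 32 genes and did not pass the threshold, although the vehicle groups did not overlap.

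CD2 is an adhesion receptor of T and NK cells, and CD5 and CD6 are scavenger-type receptors that tune signaling. Cd2 had 4.91, 4.32 and 5.74 in treated mice, 5.27, 5.57 and 5.89 in CUG300 vehicle mice and 4.15, 4.23 and 4.03 in CUG10 mice. The CUG300 vehicle mice stood above all CUG10 mice, and the difference was 1.44 (SE 0.31, limma adjusted p = 0.0281). Cd5 had 3.76, 3.70 and 4.28 in treated mice, 4.04, 4.60 and 4.54 in CUG300 vehicle mice and 3.50, 3.67 and 3.50 in CUG10 mice. Treated replicates 1 and 2 stood close together just above the CUG10 mice, and the vehicle groups differed by 0.84 (SE 0.19, limma adjusted p = 0.0311). Cd6 had 4.61, 4.16 and 5.30 in treated mice, 4.99, 5.04 and 5.37 in CUG300 vehicle mice and 4.39, 4.65 and 4.33 in CUG10 mice. Treated replicate 2 lay below every CUG10 mouse for Cd6, and the difference between the vehicle groups, 0.68 (SE 0.26, limma adjusted p = 0.114), missed the threshold. Cd5 and Cd6 are neighbors on chromosome 19, 50.3 kb apart.

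Costimulatory receptors were also higher in CUG300 vehicle mice, although only Icos was called. Icos, a costimulatory receptor that appears on activated T cells, had 5.18, 4.57 and 6.39 in treated mice, 5.90, 6.31 and 6.66 in CUG300 vehicle mice and 4.35, 4.58 and 4.24 in CUG10 mice. No CUG300 vehicle mouse came near the CUG10 range, and the difference, 1.90 (SE 0.40, limma adjusted p = 0.0267), was the largest of the 3 costimulatory genes. Cd28, the main costimulatory receptor of resting T cells, spanned 3.88 to 4.73 in treated, 4.18 to 5.30 in CUG300 vehicle and 3.74 to 3.93 in CUG10 mice, at 1.01 (SE 0.29, limma adjusted p = 0.0571). Cd27, a receptor of the tumor necrosis factor family, had 3.33, 3.10 and 4.05 in treated mice, 3.51, 3.78 and 4.02 in CUG300 vehicle mice and 3.14, 3.25 and 3.10 in CUG10 mice. Its difference of 0.61 (SE 0.23, limma adjusted p = 0.109) also missed the threshold, so 1 of the 3 costimulatory genes was called.

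Of the inhibitory receptors tested, 2 of 4 were called, with a median log2 difference of 0.97. Pdcd1, which encodes PD-1, had 4.96, 4.40 and 5.48 in treated mice, 5.01, 5.54 and 5.48 in CUG300 vehicle mice and 4.04, 4.29 and 4.05 in CUG10 mice. The vehicle groups were fully separated, at 1.22 (SE 0.26, limma adjusted p = 0.0267). Ctla4, whose product competes with CD28 for its ligands, had 4.01, 3.77 and 4.87 in treated mice, 4.24, 4.98 and 4.92 in CUG300 vehicle mice and 3.63, 3.67 and 3.59 in CUG10 mice. CUG300 vehicle replicate 1 was the lowest of its group and still above all CUG10 mice, with a difference of 1.08 (SE 0.28, limma adjusted p = 0.044). Tigit, an inhibitory receptor of T and NK cells, had 3.43, 3.33 and 4.09 in treated mice, 3.55, 4.12 and 4.44 in CUG300 vehicle mice and 3.18, 3.19 and 3.19 in CUG10 mice. The CUG10 values hardly varied at this low level, and the difference of 0.85 (SE 0.24, limma adjusted p = 0.0549) missed the threshold. Lag3, which binds class II major histocompatibility complex proteins, had 7.93, 7.66 and 8.44 in treated mice, 8.43, 8.18 and 8.79 in CUG300 vehicle mice and 7.76, 8.03 and 7.59 in CUG10 mice. Treated replicates 1 and 2 lay inside the CUG10 range, and the vehicle groups differed by 0.67 (SE 0.23, limma adjusted p = 0.0875). Cd28, Ctla4 and Icos form a cluster on chromosome 1, with gaps of 113.6 kb and 62.1 kb, and Cd4 and Lag3 lie 16.1 kb apart on chromosome 6.

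The cytotoxic genes had a median log2 difference of 2.31 between CUG300 vehicle and CUG10 mice, and 5 of 5 tested were called. Gzmb, the gene of granzyme B, had 7.02, 5.40 and 8.64 in treated mice, 7.96, 8.33 and 8.34 in CUG300 vehicle mice and 4.83, 5.15 and 5.05 in CUG10 mice. Every CUG300 vehicle mouse was far above every CUG10 mouse, and the difference of 3.20 (SE 0.64, limma adjusted p = 0.0246), 9.18-fold on the rlog scale, was the largest of the 32 genes. Gzma, the gene of granzyme A, had 6.32, 5.17 and 8.11 in treated mice, 7.83, 7.46 and 7.61 in CUG300 vehicle mice and 4.64, 5.07 and 4.74 in CUG10 mice. Its difference was 2.82 (SE 0.59, limma adjusted p = 0.0267), or 7.04-fold. For both granzymes treated replicate 3 was the highest of all 9 mice, treated replicate 1 lay between the vehicle groups and treated replicate 2 lay just above the CUG10 mice. Klrk1, which encodes the activating receptor NKG2D, had 5.94, 5.03 and 7.38 in treated mice, 6.88, 7.09 and 7.14 in CUG300 vehicle mice and 4.60, 4.96 and 4.61 in CUG10 mice. It showed the same arrangement of mice, at 2.31 (SE 0.47, limma adjusted p = 0.0258).

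Nkg7, a membrane protein of cytotoxic granules, had 5.47, 4.83 and 6.79 in treated mice, 6.12, 6.23 and 6.81 in CUG300 vehicle mice and 4.39, 4.95 and 4.40 in CUG10 mice. The difference between the vehicle groups was 1.81 (SE 0.44, limma adjusted p = 0.0361), and treated replicate 2 lay inside the CUG10 range, whose highest mouse was replicate 2. Prf1, the perforin gene, had 4.40, 3.71 and 5.32 in treated mice, 4.68, 5.11 and 5.21 in CUG300 vehicle mice and 3.71, 3.80 and 3.72 in CUG10 mice. Treated replicate 2 was level with the lowest CUG10 mouse and treated replicate 3 exceeded every CUG300 vehicle mouse, with a difference of 1.26 (SE 0.34, limma adjusted p = 0.0469) between the vehicle groups. Gzma, on chromosome 13 from 113093825 to 113100981 of GRCm38, lies 70.6 kb from Gzmk, which did not reach the minimum. Granzymes and NKG2 receptors belong to families of similar genes, and how reads shared between copies were assigned is known only as far as RSEM estimates it.

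**Figure D2:**
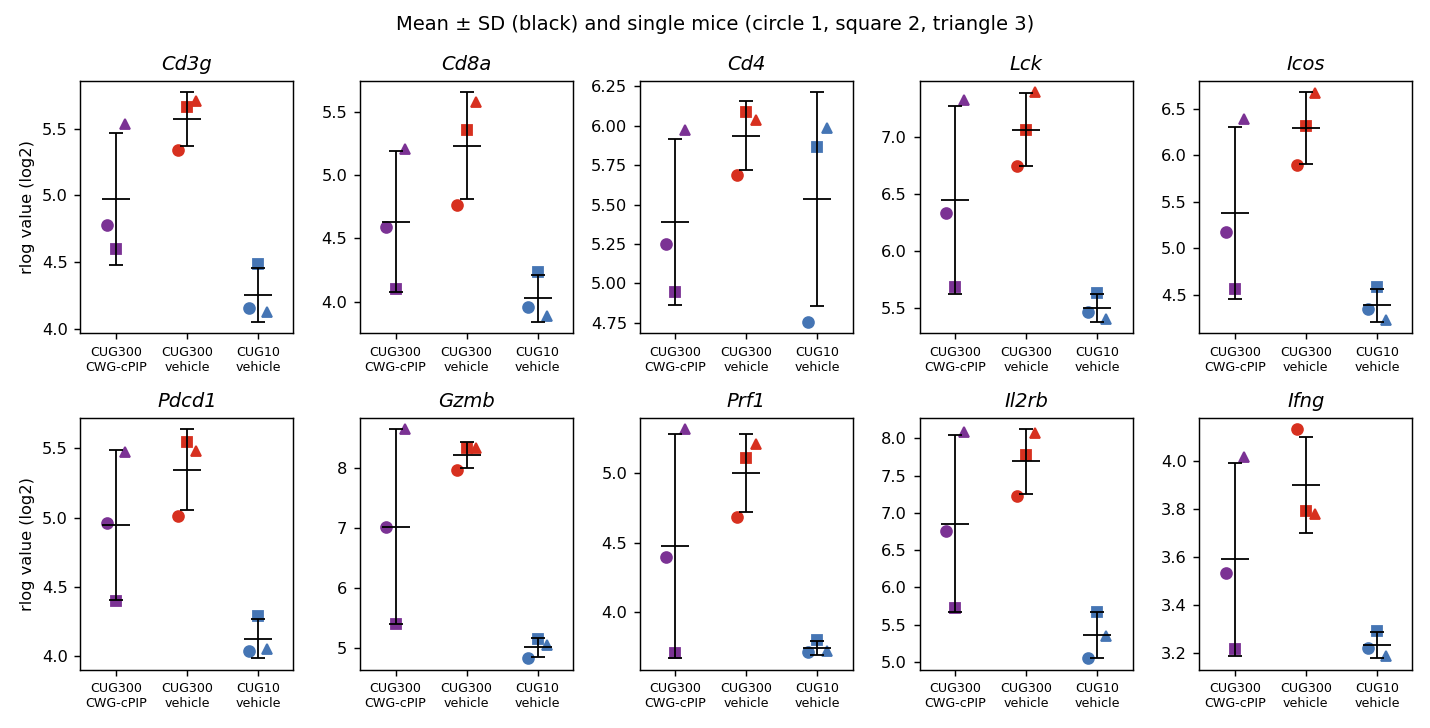
Rlog values (log2) of 10 T and NK cell genes in each mouse, with 1 point per mouse (circle replicate 1, square 2, triangle 3) and the mean ± SD of 3 mice in black, and a separate vertical scale per gene. For Gzmb the treated mice spread from 5.40 to 8.64, spanning nearly the whole distance between the CUG300 vehicle mice (7.96 to 8.34) and the CUG10 mice (4.83 to 5.15), whereas for Cd4 the groups overlap.

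Il2rb and Il2rg encode receptor chains through which T and NK cells respond to interleukin-2 and interleukin-15, and both were called. Il2rg had 7.99, 6.73 and 9.04 in treated mice, 8.46, 8.82 and 8.99 in CUG300 vehicle mice and 5.73, 6.60 and 5.90 in CUG10 mice. CUG300 vehicle and CUG10 mice were separated, at 2.68 (SE 0.50, limma adjusted p = 0.0227). Il2rb had 6.76, 5.72 and 8.08 in treated mice, 7.22, 7.78 and 8.07 in CUG300 vehicle mice and 5.05, 5.67 and 5.35 in CUG10 mice. Treated replicate 3 was level with the highest CUG300 vehicle mouse, and the vehicle groups differed by 2.33 (SE 0.51, limma adjusted p = 0.0282). An annotated gene on the same strand, Gm20489, overlaps Il2rg, so its reads may be shared.

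Cd69, an early activation marker of lymphocytes, had 6.67, 5.27 and 7.93 in treated mice, 7.71, 7.42 and 7.39 in CUG300 vehicle mice and 4.78, 5.64 and 4.92 in CUG10 mice. Its difference between the vehicle groups was 2.39 (SE 0.55, limma adjusted p = 0.0325), and treated replicate 3 was again the highest mouse. Tbx21, the gene of T-bet, the transcription factor of type 1 responses, had 4.24, 3.98 and 4.90 in treated mice, 4.45, 4.48 and 5.01 in CUG300 vehicle mice and 3.75, 3.96 and 3.68 in CUG10 mice. All CUG300 vehicle mice exceeded all CUG10 mice, and the difference of 0.85 (SE 0.24, limma adjusted p = 0.052) was just over the threshold. Ifng, the interferon gamma gene that T-bet induces, spanned 3.22 to 4.02 in treated, 3.78 to 4.13 in CUG300 vehicle and 3.19 to 3.29 in CUG10 mice, at 0.67 (SE 0.19, limma adjusted p = 0.0521). Both genes were at low rlog values, where shrinkage acts most.

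Cd52 and Ptprcap encode membrane proteins found on lymphocytes, CD52 also on other leukocytes such as monocytes. Cd52 had 9.03, 7.64 and 9.90 in treated mice, 9.89, 9.73 and 10.31 in CUG300 vehicle mice and 7.09, 7.79 and 6.72 in CUG10 mice. The vehicle groups did not overlap, and the difference of 2.78 (SE 0.51, limma adjusted p = 0.0222) corresponded to 6.85-fold. Ptprcap, which encodes a protein that associates with the phosphatase CD45, had 5.23, 4.84 and 6.23 in treated mice, 6.00, 5.85 and 6.60 in CUG300 vehicle mice and 4.56, 4.86 and 4.67 in CUG10 mice. Its difference was 1.46 (SE 0.33, limma adjusted p = 0.0316). Ptprcap overlaps Coro1b on the same strand and Rps6kb2 on the other, and Cd52 overlaps Crybg2 on the other strand.

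CWG-cPIP treatment was the second comparison. Against CUG300 vehicle mice, the treated mice had a lower mean in all 32 genes, with a median log2 difference of −0.57 (range −1.19 to −0.13) beside −0.003 over all genes tested. However, 0 of the 32 genes were called lower (0% of all genes tested), the smallest limma adjusted p being 0.483, and no gene at all was called in this comparison. An unadjusted p under 0.05 was reached by 3 of 32 genes (3.6% of all genes were lower at that level), and in 0 of 32 were the treated mice all below the CUG300 vehicle mice (3.5% of all genes). These 3 were Cd3g, with a difference of -0.60 (SE 0.23, limma unadjusted p = 0.0312), Cd5, with -0.48 (SE 0.19, limma unadjusted p = 0.0312), and Icos, with -0.91 (SE 0.40, limma unadjusted p = 0.0481). The largest differences were those of Gzmb, -1.19 (SE 0.64), Cd52, -1.12 (SE 0.51), and Gzma, -1.10 (SE 0.59), each with a limma adjusted p = 0.483. By role, medians ran from −0.31 for Cd69, Ifng and Tbx21 to −0.92 for the cytotoxic genes. Without treated replicate 3, the highest treated mouse in all 32 genes, the median was −0.87. All 32 genes then had an unadjusted p under 0.05 with limma, and none passed adjustment (smallest limma adjusted p = 0.0812). In that fit 3 of all genes were called. The share of all genes at an unadjusted p under 0.05 is not given here for that fit, so the 32 cannot be set against it. Without treated replicate 2, 0 of the 32 genes reached an unadjusted p under 0.05 with limma and the median was −0.26.

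Against CUG10 mice, the treated mice had a median log2 difference of 0.69 (range −0.15 to 2.01) beside 0.0005 over all genes tested, and Cd4 alone had a lower mean. Again 0 of 32 genes were called higher (0% of all genes tested), and the smallest limma adjusted p was 0.191, for Il2rg at 1.84 (SE 0.50). An unadjusted p under 0.05 was reached by 17 of 32 genes (8.12% of all genes), and in 14 of 32 all treated mice stood above all CUG10 mice (13.4% of all genes). Gzmb had a difference of 2.01 (SE 0.64, limma adjusted p = 0.246), Gzma 1.72 (SE 0.59, limma adjusted p = 0.267) and Cd52 1.66 (SE 0.51, limma adjusted p = 0.232). Without treated replicate 2, 11 of the 32 genes were called higher, beside 497 of the 14868 genes tested in that fit. The 11 were Cd247, Lck, Cd2, Pdcd1, Gzma, Gzmb, Klrk1, Il2rb, Il2rg, Cd69 and Cd52. Their log2 differences ran from 0.96 for Cd247 up to 2.82 for Gzmb. This comparison and the previous one share the treated mice, and each also shares a vehicle group with the comparison of CUG300 vehicle and CUG10 mice.

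**Figure D3:**
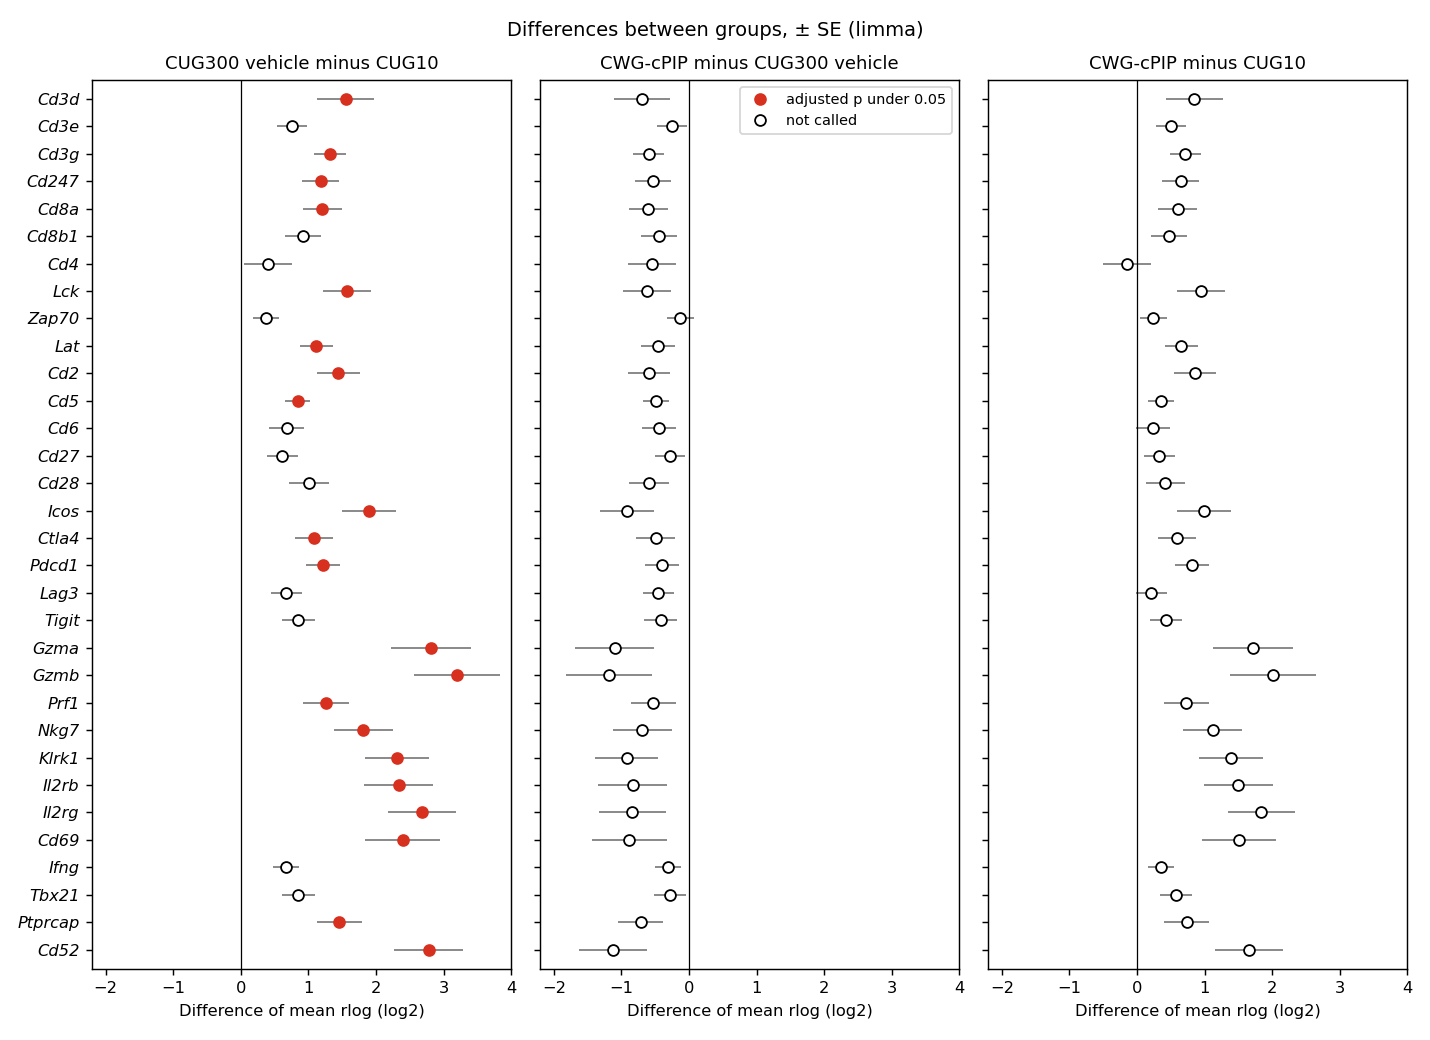
Log2 difference of each of the 32 genes with its standard error from limma in 3 comparisons, filled red where the adjusted p was under 0.05. The 21 called genes are all in the comparison of CUG300 vehicle with CUG10 mice; with CWG-cPIP all 32 points lie left of 0 against CUG300 vehicle mice and 31 lie right of 0 against CUG10 mice, with none called.

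The wide standard errors came with an ordering of the treated mice that was the same in every gene. Replicate 3 was the highest, replicate 1 the middle and replicate 2 the lowest treated mouse in 32 of 32 genes, an order found in 34.3% of all genes tested. Replicates 1 and 2 lay below every CUG300 vehicle mouse while replicate 3 did not in 32 of 32 genes (17% of all genes). Replicate 3 exceeded every CUG300 vehicle mouse in 11 genes (11.9% of all genes), among them Gzma, Gzmb, Prf1, Klrk1, Il2rb, Il2rg and Cd69. Replicate 2 was within or below the CUG10 range in 18 genes (66% of all genes), replicate 1 in 3, namely Cd4, Cd6 and Lag3 (67.6% of all genes), and replicate 3 in Cd4 alone (63.3% of all genes). The SD of the treated mice was larger than that of both vehicle groups in 29 of 32 genes (26.5% of all genes), the exceptions being Cd4, Cd28 and Tigit. The median SD over the 32 genes was 0.58 in treated, 0.30 in CUG300 vehicle and 0.15 in CUG10 mice, beside 0.14, 0.22 and 0.10 over all genes tested.

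For the 21 genes called between the vehicle groups, each treated mouse was placed on a scale with the CUG300 vehicle mean at 1 and the CUG10 mean at 0. Replicate 1 lay at a median of 0.52 (range 0.24 to 0.71), replicate 2 at 0.13 (range −0.03 to 0.26) and replicate 3 at 1.14 (range 0.86 to 1.25). The range of replicate 3 stood apart from both others, and those of replicates 1 and 2 met only between 0.24 and 0.26. These positions describe 3 mice, and the genes are not independent measurements of them. The vehicle groups were also ordered: CUG300 vehicle replicate 3 was the highest of its group in 25 of 32 genes (30.6% of all genes) and CUG10 replicate 2 in 30 of 32 (28.3% of all genes).

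**Figure D4:**
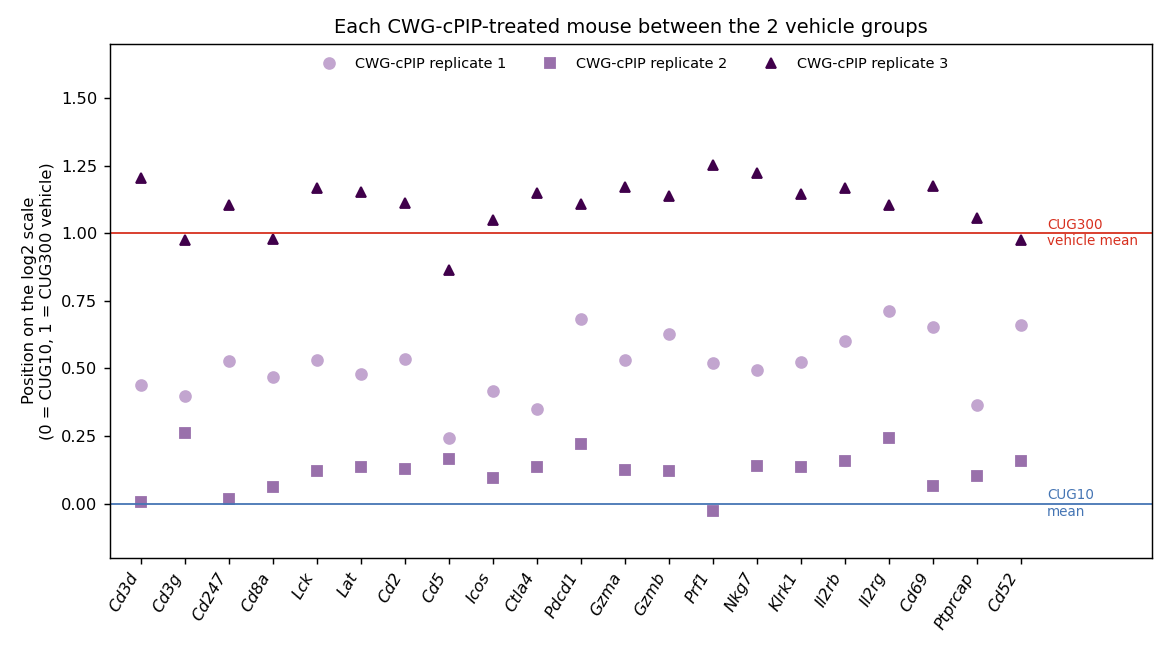
Position of each CWG-cPIP-treated mouse between the CUG300 vehicle mean (1, red line) and the CUG10 mean (0, blue line) on the log2 scale, for the 21 genes called between the vehicle groups. The 3 mice form bands with medians of 0.52 (replicate 1), 0.13 (replicate 2) and 1.14 (replicate 3).

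Other genes of the T cell receptor pathway were also among the calls. Of 30 listed, 24 were tested and 9 were called higher in CUG300 vehicle than in CUG10 mice (background 7.37%), among them Lcp2, Vav1, Grap2, Ptprc, Ptpn22, Il7r and Il2ra. The median log2 difference was 0.66 (range −0.39 to 2.53). Means were lower in CUG300 vehicle mice for Plcg1, at −0.39 (SE 0.25, limma adjusted p = 0.321), Rasgrp1, at −0.36 (SE 0.12, limma adjusted p = 0.0724), Bcl11b, at −0.24, and Nfatc2, at −0.16, and none of these was called. Lcp2, the gene of the adaptor SLP-76, which joins LAT in signaling, had 7.5, 6.75 and 8.06 in treated mice, 7.82, 8.03 and 8.06 in CUG300 vehicle mice and 6.26, 6.51 and 6.29 in CUG10 mice. The CUG300 vehicle mice were above all CUG10 mice, at 1.62 (SE 0.28, limma adjusted p = 0.0218). Ptprc, the gene of CD45, a phosphatase of all leukocytes, differed by 2.53 (SE 0.50, limma adjusted p = 0.0246), and Il7r, a receptor that keeps resting T cells alive, by 1.82 (SE 0.50, limma adjusted p = 0.0495). Fyn, a kinase that neurons and glia express as well, differed by 0.05 (SE 0.10, limma adjusted p = 0.764). With CWG-cPIP the median was −0.30 against CUG300 vehicle and 0.39 against CUG10 mice, with 0 called in each (limma). At an unadjusted p under 0.05, 1 gene was higher (5.23% of all genes) and 0 were lower (3.6%) against CUG300 vehicle mice. Against CUG10 mice 5 were higher at that level (8.12% of all genes).

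Genes of T cell traffic and effector function numbered 20, all tested, and 15 were called higher in CUG300 vehicle mice (background 7.37%). The median difference was 1.20 (range −0.33, for Tox, to 3.36). Ccl5, a chemokine made by cytotoxic T and NK cells and by other cells, had 9.12, 7.04 and 10.60 in treated mice, 10.10, 10.13 and 10.70 in CUG300 vehicle mice and 6.80, 7.41 and 6.64 in CUG10 mice. The treated mice again spanned the distance between the vehicle groups, and the vehicle groups differed by 3.36 (SE 0.72, limma adjusted p = 0.0274). Xcl1, a chemokine of CD8 T cells and NK cells, differed by 0.89 (SE 0.23, limma adjusted p = 0.0417). With CWG-cPIP the median was −0.61 against CUG300 vehicle and 0.67 against CUG10 mice, with 0 called in each (limma). At an unadjusted p under 0.05, 2 were lower against CUG300 vehicle mice (3.6% of all genes) and 11 higher against CUG10 mice (8.12%).

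NK cell markers gave 5 of 9 tested called higher (background 7.37%), with a median difference of 1.03. The list held 12, of which Xcl1 and Eomes are also in the previous list. Klrb1c, the gene of the NK1.1 antigen of C57BL/6 mice, had 4.35, 3.88 and 5.05 in treated mice, 4.81, 4.93 and 4.97 in CUG300 vehicle mice and 3.73, 3.89 and 3.78 in CUG10 mice. No mouse of the vehicle groups overlapped, at 1.11 (SE 0.24, limma adjusted p = 0.0293). Klrd1, the gene of CD94, differed by 1.3 (SE 0.28, limma adjusted p = 0.0282), and Klre1, another receptor of NK cells, by 1.28 (SE 0.27, limma adjusted p = 0.0267). Ncr1, the gene of NKp46 and the most specific NK marker of the list, did not reach the minimum and had 2.48, 2.34 and 2.57 in treated mice, 2.72, 2.65 and 2.67 in CUG300 vehicle mice and 2.31, 2.37 and 2.31 in CUG10 mice. Among markers of regulatory and gamma delta T cells, 2 of 3 tested were called higher (6 listed, background 7.37%). They were Il2ra, the alpha chain of the interleukin-2 receptor, which is also counted in the pathway list, at 1.62 (SE 0.39, limma adjusted p = 0.0361), and Ikzf2 at 0.41 (SE 0.11, limma adjusted p = 0.0472), whereas Foxp3, which defines regulatory T cells, was under the minimum.

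Markers of other leukocytes were higher together with the T and NK cell genes. The background for each list below was 7.37% of all genes called higher and 3.34% called lower between the vehicle groups. Of 10 monocyte and macrophage markers, 7 were called higher in CUG300 vehicle mice (median 2.15), with Ly6c2, a surface protein of inflammatory monocytes, at 4.52 (SE 0.75, limma adjusted p = 0.0213), Plac8 at 4.38 (SE 0.79, limma adjusted p = 0.0222) and Ccr2, a receptor that draws monocytes into tissue, at 2.82 (SE 0.45, limma adjusted p = 0.0207). Of 6 B cell markers tested (8 listed), 3 were called (median 1.08), all of them genes that antibody-secreting cells also express: Cd79a, Jchain at 3.95 (SE 0.79, limma adjusted p = 0.0248) and Mzb1 at 2.43 (SE 0.56, limma adjusted p = 0.0317). Ms4a1, the CD20 gene of B cells, was under the minimum. Neutrophil markers were nearly absent, with S100a8 and S100a9 between 1.03 and 1.35 in all mice, and Csf3r, the only one of 7 in the files that was tested, differed by 1.00 (SE 0.28, limma adjusted p = 0.0519). Of 10 microglia markers 2 were called (median 0.16), Tmem119 at 0.77 (SE 0.16, limma adjusted p = 0.0265) and Aif1, which macrophages also express, at 1.63 (SE 0.42, limma adjusted p = 0.0422), while P2ry12 differed by -0.34 (SE 0.26, limma adjusted p = 0.4). Of 10 hippocampal neuron markers 0 were called higher and 1, Fibcd1, was called lower at -0.80 (SE 0.15, limma adjusted p = 0.0241) (median −0.20), and Slc17a7 differed by -0.62 (SE 0.17, limma adjusted p = 0.0513). Against CUG300 vehicle mice, 0 genes of these lists were called in treated mice with limma. At an unadjusted p under 0.05 (3.6% of all genes lower), 4 of 6 B cell markers, 2 of 10 monocyte and macrophage markers and 0 of 10 microglia markers were lower. What part other leukocytes had in the T and NK cell values was not tested.

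By mouse, the median of the 32 T and NK cell genes over the CUG10 mean was 0.55, 0.15 and 1.3 in treated mice, 0.97, 1.29 and 1.46 in CUG300 vehicle mice and −0.07, 0.16 and −0.07 in CUG10 mice. Monocyte and macrophage markers had 0.77, 0.61 and 2.09 in treated mice, 2.08, 1.85 and 2.26 in CUG300 vehicle mice and −0.10, 0.25 and −0.21 in CUG10 mice. For both lists treated replicate 3 stood with the CUG300 vehicle mice and the other treated mice stood below them. B cell markers had 0.31, 0.11 and 0.80 in treated mice, 0.50, 0.91 and 1.86 in CUG300 vehicle mice and −0.09, 0.17 and −0.08 in CUG10 mice. Microglia markers lay between −0.14 and 0.33 in all 9 mice.

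Choroid plexus markers took another order. Their medians were −1.3, −1.26 and −1.19 in treated mice, 1.55, 0.39 and 0.94 in CUG300 vehicle mice and −1.37, 0.05 and 1.33 in CUG10 mice, so the treated mice were alike and CUG10 mice ranged from the lowest to nearly the highest of all 9. Against CUG300 vehicle mice, 9 of 10 markers were lower in every treated mouse (3.5% of all genes), with differences of -4.84 for Ttr and -2.95 for Clic6. With limma 0 were called (smallest adjusted p = 0.483), and 9 had an unadjusted p under 0.05 (3.6% of all genes were lower at that level). The median difference of the 10 markers was 0.95 between CUG300 vehicle and CUG10 mice and −2.21 between treated and CUG300 vehicle mice. In the treated mice the medians of the T and NK cell genes were 0.55, 0.15 and 1.3. The mean of these markers was used as a covariate, an alternative added after the data were seen. With it, 0 T and NK cell genes were called between CUG300 vehicle and CUG10 mice, beside 1 of all genes. An unadjusted p under 0.05 with limma was reached by 29 T and NK cell genes (smallest adjusted p = 0.0951). The share of all genes at that level is not given here for this fit. The median log2 difference was 1.3 with this covariate, against 1.21 without it. The part of choroid plexus in the T and NK cell values was not tested further.

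**Figure D5:**
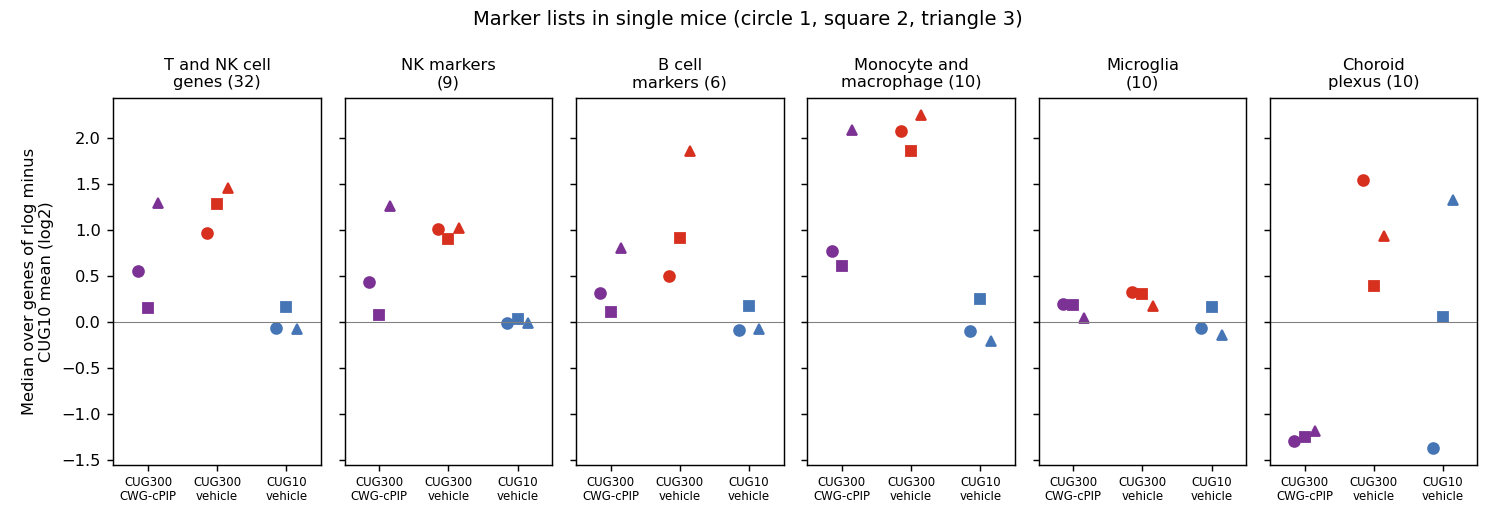
Median over the genes of a list of the rlog value minus the CUG10 mean (log2) in each mouse, for the T and NK cell genes and 5 marker lists, with the number of genes tested in parentheses (circle replicate 1, square 2, triangle 3). Treated replicate 3 stands with the CUG300 vehicle mice for T and NK cell genes (1.3) and for monocyte and macrophage markers (2.09), while all 3 treated mice lie between −1.3 and −1.19 for choroid plexus markers.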

How the data were processed

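Total RNA of whole hippocampus was sequenced as paired-end reads of a directional library, 1 library per mouse, 3 mice per group. Per the submitters' processing notes, the authors used Trim Galore 0.6.6 for trimming, STAR 2.7.9a for alignment to mm10 and RSEM 1.3.3 for quantification, and deposited log2 values, the rlog of DESeq2 1.36.0. The rlog options, the annotation and any use of strand are not given in the sources used here. Counts were not analysed here, depth is unknown and no count model was used.

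Each file listed 24411 genes, of which 5175 were at 0 in all mice, and 27 symbols had been turned into dates. No mice had identical values. The 14867 genes whose mean reached log2(10) were tested with limma 3.58.1 in R 4.3.3, with 1 mean per group, all 9 mice, a variance trend (3.03 prior degrees of freedom) and Benjamini-Hochberg adjustment within each of 3 comparisons. The procedure was tested on simulated data in which each gene varied independently. It was not tested on data in which mice deviate together over many genes, as the treated mice did here. Fold values are 2 to the power of the rlog difference.

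The genes and lists were chosen with earlier results of these data known. Per-mouse values are given, within each role, for the gene with the highest mean and the one with the largest difference between vehicle groups, for every called gene, and for genes whose lowest treated value lay outside the ranges of both other groups. From other lists, the first 2 genes written and the 2 with the largest difference are named, other names having been chosen after their values were seen, and some genes of these lists are counted but not reported here by name. Alternatives were median centring, quantile scaling, other filters on low values, no variance trend, robust variances, a replicate block, a fit of the compared groups alone, an adjusted p under 0.1 and leaving out each mouse. P-values measure the spread between the samples of a group, which the labels number as replicates and the study describes as mice. Gene positions come from GENCODE on GRCm38 and promoter sequences from RefSeq on GRCm38.p6.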

Additional observations from a re-analysis of the deposited data

How the results depend on the processing

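Median centring, a minimum in at least 1 group, limma without trend and its robust form left the 21 T and NK cell genes called between CUG300 vehicle and CUG10 mice. Quantile scaling and no filter each gave 18, losing Cd3d, Ctla4 and Prf1, an adjusted p under 0.1 gave 28, and a fit of only the 2 groups compared gave 29. At a mean of at least log2(100), 4 genes were tested and 3 called (Gzmb, Il2rg and Cd52), with medians of 2.73 for CUG300 vehicle against CUG10 mice, −0.98 for treated against CUG300 vehicle mice and 1.75 for treated against CUG10 mice, because only high genes were left. Leaving out each mouse gave 0 to 30 T and NK cell genes called and medians of 1.13 to 1.40 between the vehicle groups, 0 called and medians of −0.87 to −0.26 between treated and CUG300 vehicle mice, and 0 to 11 called and medians of 0.33 to 0.94 between treated and CUG10 mice. Over all genes, leaving out each mouse gave 0 to 2489, 0 to 3 and 0 to 567 calls in these comparisons. Calls over all genes between the vehicle groups were 3108 at an adjusted p under 0.1, with 21 between treated and CUG10 mice. With only the 2 groups compared, 3 genes were called between treated and CUG300 vehicle mice and 14 between treated and CUG10 mice. The choroid plexus covariate, added after the data were seen, left 1 gene called between the vehicle groups and 0 T and NK cell genes, whose median was 1.3 with it and 1.21 without it. The cause of these shifts was not tested.

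Calls split into 1096 higher and 496 lower between the vehicle groups, into 1014 and 908 after median centring and into 888 and 642 after quantile scaling.

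Small differences changed sign. Treated against CUG10 mice, Cd4 ranged over −0.54 to 0.077 when each mouse was left out (0.016 without CUG10 replicate 2, 0.077 without CUG10 replicate 3 and 0.075 without treated replicate 2) and had 0.26 with the choroid plexus covariate. Cd6 ranged over −0.070 to 0.50 and Lag3 over −0.0012 to 0.39, the lowest in both cases without treated replicate 3. Treated against CUG300 vehicle mice, Zap70 ranged over −0.35 to 0.078, the highest without treated replicate 2, and Cd4 had 0.21 with the choroid plexus covariate.

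Replicate numbers are shared between groups. Deviations of same-numbered mice correlated at −0.18, 0.40 and 0.41 between treated and CUG300 vehicle mice, at −0.17, −0.50 and −0.33 between treated and CUG10 mice and at 0.14, −0.21 and −0.02 between the vehicle groups. Those of different-numbered mice ranged over −0.52 to 0.43, −0.03 to 0.46 and −0.24 to 0.26 in the same comparisons. With 3 mice per group, these values cannot decide whether the numbers pair the mice. With the replicate number as a block, 25 T and NK cell genes were called between the vehicle groups, the 21 and 4 more, and 0 in both comparisons of treated mice.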
